A study of Mus musculus with 8 samples.

Results

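The clustered histone genes described here are the mouse genes whose symbols begin Hist1h, Hist2h, Hist3h or Hist4h in the GENCODE release M21 annotation. The annotation holds 70 of them, and 45 had values in the deposited tables, out of 21553 genes with values in all. They fall into 6 genes for the linker histone H1, 13 for H2A, 11 for H2B, 5 for H3 and 10 for H4. A further 8 were listed without a value, and 17 were not listed (among them Hist2h2bb, Hist2h3c2, Hist3h2bb-ps and Hist4h4), so these 25 are not analysed here.

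Histones are the proteins around which DNA is wound: H2A, H2B, H3 and H4 form the core of the nucleosome, and H1 binds the linker DNA between cores. The clustered genes are the ones classically expressed when DNA replicates. They have no introns, and their mRNAs typically end in a conserved stem-loop that the protein SLBP binds, without a poly(A) tail. In the early embryo, chromatin is first packaged with maternal stores, which include the oocyte linker histone H1foo, before the embryo's own histone genes take over.

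RNA was measured in pools of whole mouse embryos from B6CBA F1 crosses. Zygotes received mCherry mRNA as the control (a red fluorescent protein), Snrpb mRNA, Snrpd2 mRNA, or a mixture of the latter 2. Snrpb and Snrpd2 encode Sm proteins, the ring-forming proteins of spliceosomal small nuclear ribonucleoproteins. The 1-cell libraries were made 5 h after injection and the 2-cell libraries 24 h after it, each as 1 library from 40 pooled embryos of 3 experiments, so the 8 conditions had no replicate. The libraries held polyadenylated RNA per the labels, so the values refer to that fraction of each histone mRNA. Below, the 4 values of a stage follow the order mCherry, Snrpb, Snrpd2, Snrpb with Snrpd2, and a level is given in cRPKM, the authors' RPKM value, which is scaled to gene length and library total.

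Depth ran from 49461122 to 59979046 counted reads at the 1-cell stage and from 39492734 to 44648717 at the 2-cell stage. The injected genes matched the labels: Snrpb had 876 cRPKM or more in every library given its mRNA against 26.2 or less elsewhere, and Snrpd2 had 4726 or more against 10.6 or less. The 12 markers of oocytes and zygotes were all found, with 7807 to 13014 CPM in all per library (CPM, reads per 1000000 counted reads). The 9 found markers of the 2-cell stage summed to 13.2 to 15.8 CPM at the 1-cell stage, where Gm5662 was at 0, and to 188 to 201 CPM at the 2-cell stage.

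The stem-loop is the feature by which these mRNAs are known, and the transcript models were searched for it on the sense strand with the 16-base motif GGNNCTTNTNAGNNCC. It was present in 45 of the 70 genes, in 32 of the 45 with values, and in 0.229% of the 55380 other annotated genes. Only the longest transcript of each gene was searched, so a stem-loop outside that model would be missed. Some models without a match were short (312 bases in Hist1h4k, 393 in Hist1h2ai), and others were long (2620 in Hist2h2be). A gene without a match is thus not shown to lack the stem-loop. The 32 genes with values and a match carried 7 different stem-loops. The 3 carried by most genes follow, and are shown because the stem bases separate H4 from the other classes. The first was the commonest form in H1, H2A and H2B, and in H3 it and the second were each in 2 genes. Capitals mark the stem and lower case the loop, 5′ to 3′, as DNA letters from the GENCODE transcripts.
H1, H2A, H2B and H3 (16 genes): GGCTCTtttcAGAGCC
H1, H2B and H3 (5 genes): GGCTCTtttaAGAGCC
H4 (5 genes): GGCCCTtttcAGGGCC
The first form was found, for example, in Hist1h1c, Hist1h2ac and Hist3h2ba, and the third in Hist1h4c.

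Among the models with a stem-loop, those that ran on past it were the ones with more reads. In 17 genes with values the model continued for over 100 bases beyond it (840 bases in Hist1h1c, 1257 in Hist2h4 and 4884 in Hist1h1d), and 10 of these had 50 or more reads over the 8 libraries. In 15 genes the model ended within 100 bases of the stem-loop, and only Hist1h2bj and Hist1h2bk among them had 50 or more reads, while 12 had fewer than 10. In the other 13 the model held no match, and 7 of these had 50 or more reads, Hist1h1a and Hist1h1b among them. These models also differ in how much of their sequence is their own.

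Near-identical copies limit what can be told apart. Unique sequence was measured as the number of 50-base windows of a transcript that occur in no other annotated gene. Genes with 50 or more reads had a median of 694 such windows (89 to 7210), and genes with fewer than 10 reads had 235.5 (55 to 863). The 8 genes listed without a value had 0 to 248. All windows were unique in Hist1h1a, Hist1h1b and Hist2h2be, whereas under 50% were unique in 4 of the 19 genes with 50 or more reads. Hist1h3e shared 497 windows with Hist1h3f, and Hist1h2bc shared 256 with Hist1h2bg. In Hist2h3b 350 windows were shared with Gm20634, and only 89 were its own.

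The gene length behind each cRPKM, recovered from the reads, the cRPKM and the library total, was shorter than the transcript in 38 of the 39 genes that allowed it. In 26 it was under 50% of the transcript, and in 13 it lay within 15% of the number of unique windows. For Hist1h1a it was 698 bases against 692 unique windows, for Hist2h4 1499 against 1565, and for Hist2h3b 76 against 89. Hist1h4c stood off this relation, with 112 bases against 620 windows. Hist1h2ai was the gene whose length exceeded its transcript, with 639 bases against 393. The way the authors counted reads that match several genes is not given in the sources used here, so values of genes with few unique windows are uncertain.

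**Figure D1:**
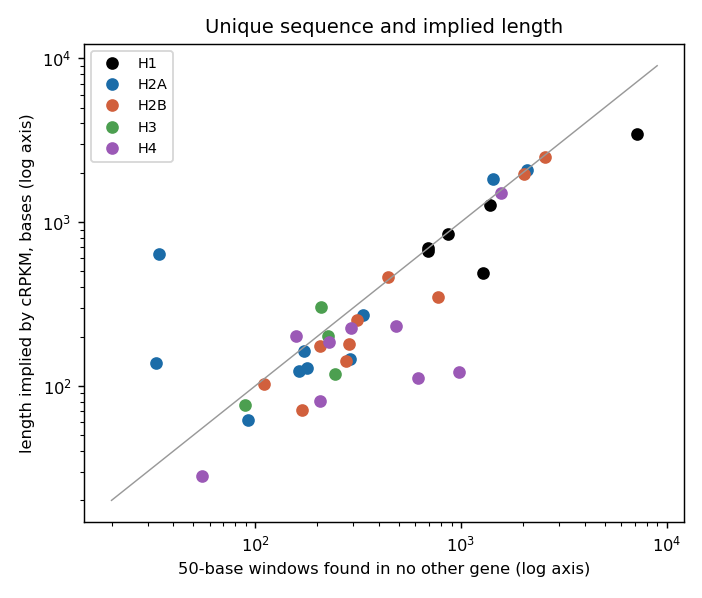
Length implied by the deposited cRPKM (vertical axis, bases, log scale) against the number of 50-base windows found in no other gene (horizontal axis, log scale), 1 point per clustered histone gene with at least 1 read, coloured by class. The line marks equality; 13 of the 39 genes lie within 15% of it, and Hist1h2ai (34 windows, 639 bases) lies far above it.

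Some genes also overlap others in the annotation. Hist1h1e overlaps Hist1h2be on the same strand, and 447 windows of the longest Hist1h1e transcript occur in a transcript of Hist1h2be. Hist3h2a overlaps Trim17 on the same strand, and 660 of its windows occur in a Trim17 transcript. A gene on the other strand overlapped 15 of the 45 genes with values, Hist1h2aa, Hist1h2ac and Hist3h2a among them. The use of strand in counting is not given in the sources used here, so reads of these genes and their partners cannot be told apart with certainty.

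Few of the clustered genes were well covered. Of the 45 with values, 6 had no read in any library (Hist1h2ae, Hist1h2af, Hist1h2bf, Hist1h3c, Hist1h4j and Hist2h2ab), 14 had 1 to 9 reads, 6 had 10 to 49, 8 had at least 50 but fewer than 300, and 11 had 300 or more. With 0 reads, a level of up to 3 reads (0.05 to 0.076 CPM, depending on the library) remains possible from counting error alone. At the low end, Hist1h1t, the testis H1, had 3 reads in all, every one in 1-cell libraries. Hist2h2ac had no read at the 1-cell stage and was at 0.31 and 0.35 cRPKM in the 2-cell Snrpd2 and Snrpb with Snrpd2 libraries. Hist1h4h was at 0.36 to 0.60 cRPKM in the 1-cell libraries and at 0 to 0.88 in the 2-cell ones, so its stages overlapped.

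Hist1h1a, which encodes the linker histone H1.1, took between 41.0% (2-cell Snrpb; 95% Wilson interval 38.0% to 44.0%) and 57.8% (1-cell mCherry; 56.1% to 59.5%) of all reads of the 45 genes. Per length it was also the highest, at 36.7 ± 7.90 cRPKM at the 1-cell stage and 18.6 ± 4.38 at the 2-cell stage (SD over the 4 differently injected libraries of a stage). At the 1-cell stage it was followed by Hist1h2aa (19.2 ± 3.56), Hist1h2bc (10.6 ± 2.44) and Hist1h2ba (6.94 ± 1.37). Hist1h2aa and Hist1h2ba encode TH2A and TH2B, the histones first described in testis, which are also known from the oocyte and the early embryo.

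At the 2-cell stage the order below Hist1h1a changed and the levels lay closer together. Hist1h2aa (4.53 ± 0.398 cRPKM) was followed by Hist3h2ba (3.26 ± 1.02), Hist1h3e (2.99 ± 0.935), Hist1h2bj (2.84 ± 0.788), Hist1h2bc (2.69 ± 0.635), Hist2h3b (2.68 ± 1.26), Hist1h4c (2.40 ± 1.03) and Hist1h1b (2.28 ± 0.781). The ranges of neighbours in this order overlapped. Only Hist1h1a stood clear of the rest at that stage, its lowest library at 14.4 cRPKM against 5.05 in the highest of Hist1h2aa.

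**Figure D2:**
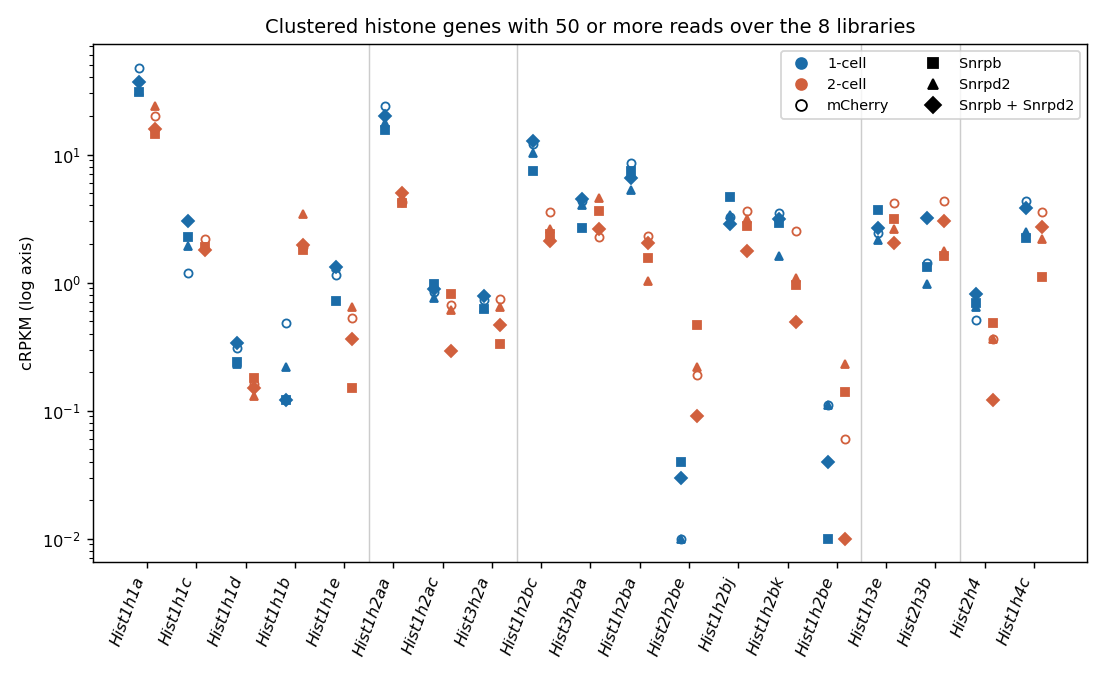
Levels (cRPKM, log axis) of the 19 clustered histone genes with 50 or more reads over the 8 libraries, grouped by class (H1, H2A, H2B, H3, H4 from left to right), 1 point per library. Colour gives the stage and marker shape the injected mRNA; Hist1h1a spans 14.4 to 47.8 cRPKM, and Hist1h1b and Hist2h2be are the 2 genes whose 2-cell points all lie above their 1-cell points.

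The first comparison asked how these mRNAs differ between the 1-cell and the 2-cell stage. Most of the classes were lower at the 2-cell stage: reads of all 45 genes together came to 57.7, 41.8, 43.0 and 51.7 CPM and then to 30.3, 24.6, 32.9 and 22.6 CPM, with no overlap between stages. All values are relative to the other polyadenylated RNA of a library and are not amounts of mRNA per embryo. In pools of whole embryos, fewer cells that hold an mRNA and less of that mRNA per cell cannot be told apart. Nor can a change in the amount of an mRNA and a change in the share of it that carries a poly(A) tail. Within the clusters the direction was not shared, since Hist1h1b and Hist2h2be rose. Sums over markers of cumulus and granulosa cells and of sperm differed between stages mainly through single genes. The sum for blood, fibroblasts and oviduct differed through several. The 15 cumulus and granulosa markers summed to 67.8 to 126 CPM and then to 51.8 to 68.0 (Amh at 0 in 2 of the 1-cell libraries and Inha in 1 of the 2-cell ones). Of these, Cyp19a1 (aromatase) went from 36.0 to 45.6 CPM to 8.04 to 10.7, and the other 14 together from 31.8 to 84.1 to 43.3 to 57.3. The 9 sperm markers summed to 95.5 to 162 and then to 578 to 701 CPM, of which Odf2 alone was 92.4 to 159 and then 575 to 699. The other 8 together were at 2.25 to 3.10 and then 2.03 to 3.31 CPM, with Smcp at 0 in every library, Tnp1 at 0 in the 1-cell and Tnp2 in the 2-cell ones. The 10 markers of blood, fibroblasts and oviduct summed to 8.72 to 29.6 and then to 57.1 to 78.1 CPM, with Hbb-bs at 0 in every library. Krt8 (a keratin) was at 7.39 to 28.2 and then 31.5 to 46.7, and the other 9 together at 1.13 to 1.37 and then 22.6 to 32.4. The part of these markers in the stage changes was not tested.

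Sums over the genes of each class that had values were compared first. They do not depend on how reads were split between those genes, but leave out 7 of 20 H2A genes, 8 of 19 H2B genes, 7 of 12 H3 genes and 3 of 13 H4 genes, some of them near-identical to genes in the sum (Hist1h3f to Hist1h3e, for example). H1 had 36.9, 25.6, 26.0 and 31.4 CPM at the 1-cell stage and 18.9, 14.4, 22.2 and 15.3 at the 2-cell stage. H2A had 9.74, 7.52, 7.65 and 8.75, then 4.35, 3.62, 3.92 and 2.96. H2B had 8.61, 5.84, 7.07 and 8.41, then 3.81, 4.51, 4.57 and 2.81. In all 3 classes every 2-cell library was below every 1-cell library. Such sums follow the genes with most reads. Over all libraries Hist1h1a had 7790 reads, against 997 in Hist1h1c, the next H1 gene. Hist1h2aa had 1344, against 607 in Hist1h2ac, the next H2A gene. A fall of a class sum therefore need not be shared by all genes of the class.

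The log2 change of the sum, scaled with TMM (the trimmed mean of M values, which sets libraries to a common scale over all genes), was -1.02 (SE 0.15) for H1, -1.44 (SE 0.18) for H2A and -1.19 (SE 0.22) for H2B. H4 went from 1.69, 1.57, 1.64 and 2.02 CPM to 1.53, 0.986, 1.21 and 0.684, a log2 change of -0.95 (SE 0.34), and again the stages did not overlap. H3 went from 0.843, 1.23, 0.720 and 1.07 to 1.65, 1.06, 0.918 and 0.836, a log2 change of -0.07 (SE 0.38). H3 was the class without a shared direction: 2 injections were higher and 2 lower at the 2-cell stage, while each of the other 4 classes was lower in all 4 injections. Per length, the summed H3 level (3.12 to 5.98 cRPKM, then 4.37 to 8.95) was below those of H1 (34.1 to 51.0, then 18.4 to 30.1), H2A (18.0 to 26.5, then 5.90 to 7.64) and H2B (24.98 to 32.3, then 9.56 to 14.6) at the 1-cell stage.

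**Figure D3:**
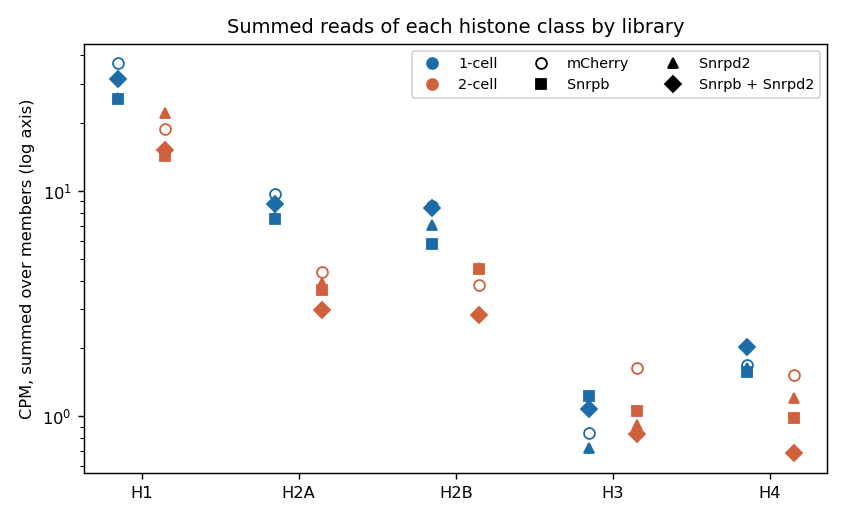
CPM (log axis) summed over the genes of each histone class, 1 point per library, with the 1-cell stage on the left and the 2-cell stage on the right of each class and the marker shape giving the injected mRNA. The stages are separate for H1, H2A, H2B and H4 and overlap for H3 (0.720 to 1.23 at the 1-cell stage and 0.836 to 1.65 at the 2-cell stage).

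Single genes were tested with edgeR's quasi-likelihood test with terms for injection and stage. Each injection was compared with itself across the stages, and p-values were adjusted over 16264 genes (Benjamini-Hochberg). Of the 45 genes, 19 passed the filter on low counts. At an adjusted p of 0.05, 2 rose and 8 fell, against 38.1% of all genes tested that rose and 32.0% that fell. The median log2 change of the 19 genes was -0.71, and that of all genes tested was 0.15. By class, 1 rose and 3 fell of 5 tested H1 genes, 2 fell of 3 H2A genes, 1 rose and 2 fell of 7 H2B genes, and 1 fell of 2 H4 genes. Neither of the 2 tested H3 genes passed. In 7 of the 19 genes every 2-cell level was below every 1-cell level and in 2 every one was above, against 25.2% and 42.6% of all genes with 50 or more reads.

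**Figure D4:**
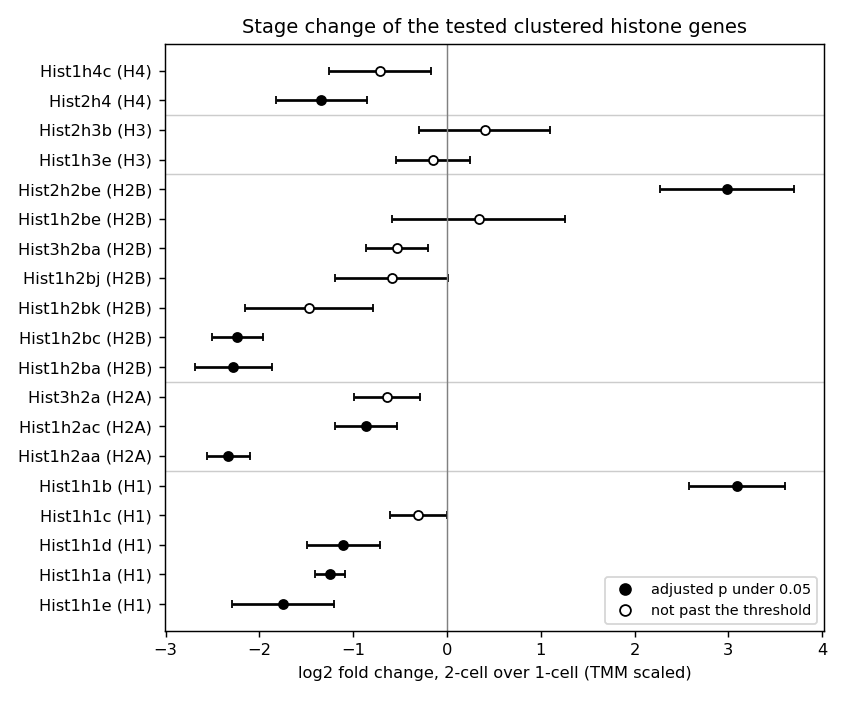
Log2 fold change of the 2-cell over the 1-cell stage (horizontal axis) of the 19 tested clustered histone genes, by class, with bars of 1 standard error from the edgeR fit. Filled points passed an adjusted p of 0.05: Hist1h1b (3.10) and Hist2h2be (2.99) lie on the right and 8 genes on the left, with Hist1h2aa (-2.33) farthest.

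Linker histone genes moved in opposite directions. Hist1h1a was at 47.8, 30.8, 31.4 and 36.7 cRPKM at the 1-cell stage and at 20.1, 14.4, 24.0 and 15.7 at the 2-cell stage. All 4 of its 2-cell libraries were below its lowest 1-cell library. It was 2.37-fold lower (log2 -1.25, SE 0.16, edgeR adjusted p = 6.19e-05).

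Hist1h1b, the gene of H1.5, was at 0.48, 0.12, 0.22 and 0.12 cRPKM (18, 5, 8 and 4 reads) and then at 1.90, 1.81, 3.45 and 1.97 (54, 49, 103 and 52 reads). The lowest 2-cell library was well above the highest 1-cell library. The fitted change was 8.55-fold (log2 3.10, SE 0.51, edgeR adjusted p = 0.000352), and it was smaller in the mCherry pair of libraries (log2 1.75) than in the other pairs (3.43 to 3.66), a difference that did not pass its own test (adjusted p = 0.533 in the edgeR fit of stage dependence). Per length Hist1h1b stayed below Hist1h1a in every 2-cell library, and came closest in that of Snrpd2 (3.45 against 24.0 cRPKM).

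Hist1h1d (H1.3) went from 0.31, 0.24, 0.23 and 0.34 cRPKM to 0.16, 0.18, 0.13 and 0.15, with separate stages (log2 -1.10, SE 0.39, edgeR adjusted p = 0.028). Hist1h1e (H1.4) went from 1.14, 0.72, 1.32 and 1.32 to 0.53, 0.15, 0.64 and 0.36 (log2 -1.75, SE 0.54, edgeR adjusted p = 0.0151). Its stages were separate too, although only 3 to 14 reads stood behind each 2-cell value. Hist1h1c (H1.2) overlapped between stages, at 1.19 to 3.04 and 1.81 to 2.19 cRPKM, and did not pass (log2 -0.31, edgeR adjusted p = 0.384). Hist1h1t was not tested.

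Among the H2A genes, Hist1h2aa fell by the largest factor of all clustered genes tested. It was at 23.8, 15.5, 17.7 and 19.99 cRPKM at the 1-cell stage and at 4.25, 4.19, 4.63 and 5.05 at the 2-cell stage. The 2-cell values sat close together and far below the 1-cell ones (5.03-fold lower, log2 -2.33, SE 0.23, edgeR adjusted p = 8.66e-06). Hist1h2ac, a replication-dependent H2A gene with a long 3′ extension in its model, went from 0.84, 0.98, 0.76 and 0.89 to 0.67, 0.82, 0.61 and 0.29 cRPKM. Its stages overlapped, and its fall was the smallest to pass (log2 -0.86, SE 0.33, edgeR adjusted p = 0.0399). Hist3h2a was at 0.62 to 0.78 and then 0.33 to 0.74 cRPKM and did not pass (log2 -0.64, edgeR adjusted p = 0.13).

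H2B genes held both a large rise and 2 large falls. Hist1h2bc was at 12.1, 7.38, 10.2 and 12.8 cRPKM and then at 3.58, 2.41, 2.64 and 2.11 (log2 -2.23, SE 0.28, edgeR adjusted p = 4.51e-05). Hist1h2ba was at 8.55, 7.38, 5.31 and 6.51 and then at 2.30, 1.56, 1.03 and 2.04 (log2 -2.28, SE 0.41, edgeR adjusted p = 0.000627). The stages did not overlap in either gene. Hist2h2be, a gene of the Hist2 cluster on chromosome 3, was at 0.01, 0.04, 0.01 and 0.03 cRPKM and then at 0.19, 0.47, 0.22 and 0.09 (log2 2.99, SE 0.71, edgeR adjusted p = 0.00373). These values rested on 1, 6, 2 and 4 reads and then on 20, 47, 24 and 9, and the stages were separate.

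The other H2B genes tested did not pass. Hist3h2ba was at 2.66 to 4.49 and then 2.28 to 4.54 cRPKM, with full overlap (log2 -0.53, edgeR adjusted p = 0.173). Hist1h2bk (log2 -1.47, adjusted p = 0.0782, but past the threshold in both limma fits and without the injection terms), Hist1h2bj (-0.59, adjusted p = 0.404) and Hist1h2be (0.34, adjusted p = 0.758, edgeR) also had overlapping stages.

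Of the H3 genes only Hist1h3e and Hist2h3b had enough reads to be tested. Hist1h3e was at 2.44, 3.66, 2.15 and 2.69 cRPKM and then at 4.22, 3.11, 2.60 and 2.02. Hist2h3b was at 1.42, 1.32, 0.97 and 3.19 and then at 4.33, 1.62, 1.77 and 3.0, on 4 to 14 reads per library. Neither gene separated the stages (log2 -0.15, SE 0.39, and 0.40, SE 0.70; edgeR adjusted p = 0.749 and 0.622).

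Of the H4 genes, Hist2h4 went from 0.51, 0.69, 0.64 and 0.81 cRPKM to 0.36, 0.48, 0.36 and 0.12, with all 2-cell libraries lower (log2 -1.34, SE 0.48, edgeR adjusted p = 0.03). Hist1h4c was at 4.32, 2.23, 2.47 and 3.79 and then at 3.57, 1.10, 2.20 and 2.71, and its stages overlapped (log2 -0.71, SE 0.54, edgeR adjusted p = 0.263).

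The falls of Hist1h1a, Hist1h2aa, Hist1h2ba and Hist1h2bc and the rises of Hist1h1b and Hist2h2be passed under each of the 12 alternatives tried. Those of Hist1h1d and Hist1h2ac were each lost under 7 of the 12 (library totals, both limma fits and 4 of the fits with libraries left out), that of Hist2h4 under 3, and that of Hist1h1e under 1. Scaling by library totals moved the median of all genes from 0.15 to 0.41 (log2) and left 2 higher and 5 lower, without Hist1h1d, Hist1h2ac and Hist2h4 (44.7% and 25.6% of all genes). Leaving out both Snrpb with Snrpd2 libraries left 4 lower, since Hist1h1e (adjusted p = 0.0607 without them, edgeR) was lost as well.

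H2A and H2B genes often lie in divergent pairs that share 1 start region. The part of promoters in the stage changes was not tested. Hist1h2aa and Hist1h2ba form such a pair on chromosome 13 and fell by nearly the same factor (log2 -2.33 and -2.28). Hist1h2bc, for which no start region was matched, fell by a similar factor, so this likeness does not set the pair apart. Hist1h1a and Hist1h1b, also on chromosome 13, moved in opposite directions. The 250 bases before the start of Hist1h1a, Hist1h1b and Hist1h2aa are shown on the sense strand, from RefSeq on GRCm38.p6. Capitals mark the TATA box motif TATAAA, the CCAAT box, the octamer ATTTGCAT and the motif AAACACA, which is known from H1 promoters, each on either strand.
Hist1h1a, chr13:23763418-23763667, plus strand: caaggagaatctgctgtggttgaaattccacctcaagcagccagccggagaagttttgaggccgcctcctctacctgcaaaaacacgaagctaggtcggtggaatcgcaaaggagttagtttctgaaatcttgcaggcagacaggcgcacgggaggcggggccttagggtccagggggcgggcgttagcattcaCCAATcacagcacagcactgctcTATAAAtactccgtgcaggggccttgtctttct
Hist1h1b, chr13:21780626-21780875, minus strand: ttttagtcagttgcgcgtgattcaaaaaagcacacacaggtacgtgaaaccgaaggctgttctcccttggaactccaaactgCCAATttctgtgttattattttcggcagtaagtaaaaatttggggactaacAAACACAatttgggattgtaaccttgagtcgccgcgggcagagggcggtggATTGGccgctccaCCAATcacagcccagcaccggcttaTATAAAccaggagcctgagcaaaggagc
Hist1h2aa, chr13:23934187-23934436, plus strand: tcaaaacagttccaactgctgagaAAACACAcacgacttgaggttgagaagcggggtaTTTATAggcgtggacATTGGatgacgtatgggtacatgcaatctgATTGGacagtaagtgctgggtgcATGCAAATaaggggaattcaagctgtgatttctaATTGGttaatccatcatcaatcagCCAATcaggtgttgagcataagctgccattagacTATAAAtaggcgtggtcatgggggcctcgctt

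In Hist1h1a, Hist1h1b and Hist1h2aa, TATAAA began 33, 28 and 32 bases before the start. The window of Hist1h1b held AAACACA and that of Hist1h1a did not. Those of Hist1h1d, Hist1h1e and Hist1h2aa, which fell, held it too. Windows of 300 bases (250 before and 50 after the start) were matched for 41 of the 45 genes, and that of Hist1h2aa shared 220 bases with that of Hist1h2ba.

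Over these 41 windows, both strands searched and with no overlap between different motifs, TATAAA was present in 27 (14.1% of 26963 other promoters), CCAAT in 35 (37.8%), ATTTGCAT in 11 (1.71%) and AAACACA in 8 (7.12%). ATTTGCAT was in 7 of 13 H2A and 4 of 9 H2B windows and in none of the 6 H1, 4 H3 and 9 H4 windows. Bases shared by a divergent pair count for both of its genes. The octamers of Hist1h2ba, Hist1h2bg and Hist1h2bk are those of their partners Hist1h2aa, Hist1h2ae and Hist1h2ah. AAACACA was in 5 of 6 H1 windows, all but that of Hist1h1a. CCAAT was in every H1, H2A, H2B and H3 window and in 3 of 9 H4 windows. These matches describe the letters of the windows.

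Other divergent pairs could not be compared in this way. In 9 H2A and H2B pairs the windows overlapped by 220 to 279 bases, and Hist1h2aa with Hist1h2ba was the only pair in which both genes were tested. In the pairs of Hist1h2ag with Hist1h2bj and of Hist1h2ah with Hist1h2bk, the H2A gene had 7 and 16 reads in all, and the H2B gene 90 and 85.

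Genes that act on these mRNAs changed in both directions. A list of 54 genes for their transcription, 3′ end formation, translation and decay had 51 members with values, of which 14 rose and 23 fell (median log2 -0.31), against 38.1% and 32.0% of all genes tested (median 0.15). With library totals in place of TMM, 19 rose and 19 fell, against 44.7% and 25.6% of all genes. Slbp, the stem-loop binding protein, was at 1916, 2292, 2189 and 1833 cRPKM and then at 354, 286, 467 and 400.4, without overlap (6.6-fold lower, edgeR adjusted p = 2.29e-07).

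Npat, the coactivator of histone gene transcription, was at 3.49 to 4.90 and then 11.9 to 13.3 cRPKM (2.41-fold higher, edgeR adjusted p = 8.42e-06). Casp8ap2 (FLASH), which acts in 3′ end cleavage of these mRNAs, was at 11.3 to 18.2 and then 41.4 to 45.4 (2.72-fold higher, adjusted p = 1.33e-05, edgeR). In both genes every 2-cell library was above every 1-cell library. Lsm10, Lsm11 and Zfp473, parts of the U7 small nuclear ribonucleoprotein machinery, did not pass (log2 -0.22, -0.38 and -0.31; edgeR adjusted p = 0.158, 0.0568 and 0.102).

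The largest rises in the list were those of Ccne1 (cyclin E1, 39.6-fold), Yy1 (a transcription factor, 27.4-fold) and Ncbp1 (a subunit of the nuclear cap-binding complex, 10.9-fold). The largest falls were those of Papolg (a poly(A) polymerase, 15.8-fold), Cpsf3 (the nuclease that cuts mRNA 3′ ends, 8.19-fold) and Exosc10 (a nuclease of the nuclear exosome, 6.89-fold). Of these 6 genes, each was separate between stages, for example Papolg at 27.7 to 38.6 and then 2.05 to 2.99 cRPKM.

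Histone genes outside the clusters gave a scale for these levels within polyadenylated RNA. The share of each mRNA that carries a poly(A) tail was not measured. The order of genes in that fraction therefore need not hold for the whole of each mRNA. H1foo fell from 627 ± 256 to 129 ± 21.2 cRPKM (5.47-fold, edgeR adjusted p = 1.19e-05) and was thus above Hist1h1a per length at both stages. H2afz, the gene of H2A.Z, rose from 29.2 ± 5.08 to 226 ± 33.5 cRPKM (6.49-fold, adjusted p = 2.37e-07, edgeR), opposite to Hist1h2aa.

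The second comparison asked whether the Sm protein injections changed these mRNAs. No clustered gene passed in either stage or in the difference between the stages. In an edgeR fit of 4 groups (stage by injected, 3 libraries, or mCherry, 1 library), 22 of the 45 genes passed the filter, and 0 were called at an adjusted p of 0.05 at the 1-cell stage, at the 2-cell stage or in the stage dependence, as were 0% of the 16867 genes tested. The lone mCherry library of a stage was assumed to vary like the injected ones. DESeq2 (6, 22 and 12 clustered genes left after its filter) and limma (32) also called 0 of them in each of the 3 contrasts, while DESeq2 called 420 genes higher and 114 lower among all genes at the 1-cell stage.

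At an unadjusted p of 0.05, edgeR marked Hist1h1c as higher and Hist1h1b as lower at the 1-cell stage, against 9.21% of all genes higher and 6.31% lower. At the 2-cell stage it marked 0 clustered genes, against 2.29% of all genes higher and 1.48% lower, whereas limma on log2(cRPKM + 0.1) marked 8 of its 32 as lower and 0 as higher, against 1.75% and 3.31% of its 16987 genes. With a pseudocount of 1 limma marked 7 as lower and 0 as higher, against 2.37% and 4.10%. Its filter, 0.1 cRPKM in 2 libraries, let in genes that the edgeR filter left out. Hist1h4n, for example, had only 2 reads in all and no read at the 2-cell stage. In Hist1h3a and Hist1h2ag the only 2-cell reads, 2 and 1, were in the mCherry library. The part of such genes in the limma counts was not tested. In the stage dependence edgeR marked 1, Hist1h1c, as lower, against 3.85% of all genes higher and 5.92% lower.

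Hist1h1c had 1.19 cRPKM in the 1-cell mCherry library and 2.25, 1.92 and 3.04 in the injected ones, on 85, 172, 133 and 192 reads. The injected libraries all lay above the control at that stage (log2 1.03, SE 0.37, edgeR adjusted p = 0.234). At the 2-cell stage it was at 2.19 in the mCherry library and at 1.89, 1.88 and 1.81 in the injected ones, all slightly below the control (log2 -0.28, SE 0.34, adjusted p = 1, edgeR). The difference between these changes was -1.32 on the log2 scale (SE 0.50, edgeR adjusted p = 0.444).

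Hist1h1b was lower in the injected 1-cell libraries, at 0.12 to 0.22 cRPKM against 0.48 (log2 -1.58, SE 0.67, edgeR adjusted p = 0.292). Hist1h1a was at 47.8 cRPKM in the 1-cell mCherry library and at 30.8 to 36.7 in the injected ones, and did not pass (log2 -0.51, SE 0.24, edgeR adjusted p = 0.333). At the 2-cell stage the 20.1 cRPKM of the mCherry library lay within the 14.4 to 24.0 of the injected ones. The 3 linker histone genes thus did not share a pattern at the 1-cell stage.

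**Figure D5:**
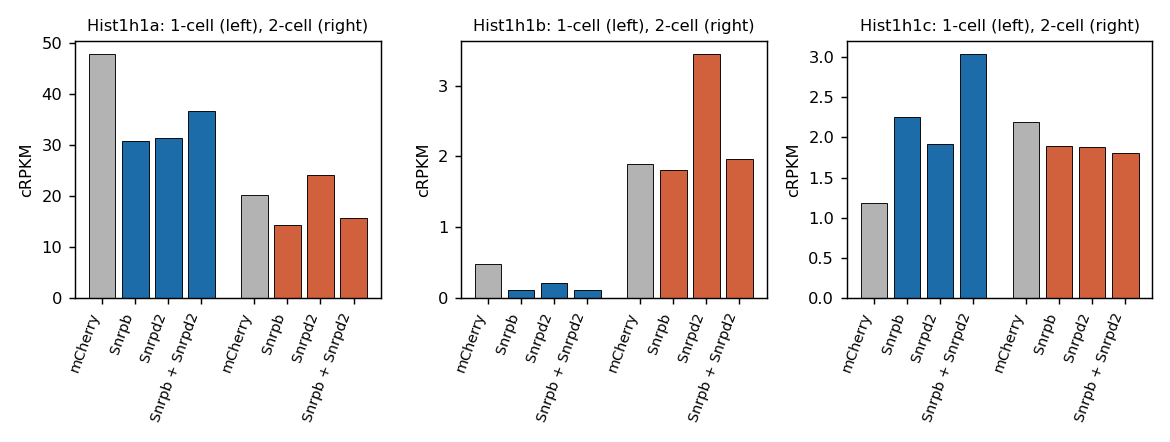
Levels (cRPKM, linear axes from 0) of Hist1h1a, Hist1h1b and Hist1h1c in the 8 libraries, 1 bar per library, with the mCherry library of each stage in grey. Hist1h1c is lowest in the 1-cell mCherry library (1.19) and Hist1h1a highest there (47.8), while the 2-cell bars of Hist1h1b (1.81 to 3.45) exceed all its 1-cell bars.

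Cumulus and granulosa markers had a higher sum in the injected libraries at the 1-cell stage. All 15 were found, and they summed to 67.8 CPM in the mCherry library and to 89.3 to 126 CPM in the injected ones, with Amh at 0 in 2 of the latter. Without Cyp19a1, the other 14 summed to 31.8 and to 43.7 to 84.1 CPM. Star (1.41 against 0.90 to 1.36 cRPKM) and Amh (0.04 against 0 to 0.01) were instead lower in each injected library. Ptx3, Nr5a2 and Cyp11a1 lay on both sides of the control. The 9 sperm markers summed to 95.5 and to 111 to 162 CPM, of which Odf2 alone was 92.4 and 108 to 159, and the other 8 together were at 3.10 and at 2.25 to 2.97. The 10 markers of blood, fibroblasts and oviduct summed to 9.95 and to 8.72 to 29.6 CPM, on both sides of the control. Of these Krt8 alone was 8.82 and 7.39 to 28.2, and the other 9 together were at 1.13 and at 1.22 to 1.37, with Hbb-bs, Hba-a1 and Col1a2 at 0. Their part in the values of Hist1h1c was not tested.

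No class sum changed by more than 2 SE between injected and control libraries. At the 1-cell stage the log2 changes were -0.38 (SE 0.22) for H1, -0.26 (SE 0.24) for H2A, -0.25 (SE 0.30) for H2B, 0.30 (SE 0.51) for H3 and 0.08 (SE 0.43) for H4. At the 2-cell stage they were -0.18 (SE 0.23), -0.36 (SE 0.25), 0.01 (SE 0.32), -0.85 (SE 0.48) and -0.71 (SE 0.43). H3 and H4 were lowest in the 2-cell library given both mRNAs, at 0.836 and 0.684 CPM, and highest in the mCherry library, at 1.65 and 1.53.

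Each injected library was also set against the mCherry library of its stage, for genes with 50 or more reads in either, with exact binomial intervals at 95% that cover counting error only. The ratios share the control library and have no replicate check. A change counted when it was at least 2-fold with the whole interval beyond 1. Hist1h1c was higher in the 1-cell Snrpb library (2.01-fold, 1.54 to 2.63, but under 2-fold with library totals) and in that given both mRNAs (2.49-fold, 1.92 to 3.26), the only such gene of 11 and of 10 (background 3.35% and 3.26%). In the Snrpd2 library its ratio was 1.66 (1.25 to 2.20), and 0 of 10 clustered genes counted as higher (3.68%). At that stage 0 counted as lower in any of the 3 libraries (1.29%, 1.50% and 0.917%).

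At the 2-cell stage 0 clustered genes counted as higher (2.65%, 2.76% and 2.15%). Hist3h2a was 2.28-fold lower in the Snrpb library (interval 1.40 to 3.85, on 24 against 57 reads), 1 of 8 genes (1.73%). In the library given both mRNAs, Hist1h2ac was 2.34-fold lower (1.43 to 3.93, 24 against 59 reads) and Hist1h3e 2.14-fold lower (1.30 to 3.62, 24 against 54 reads), 2 of 8 genes (1.36%). In the Snrpd2 library 0 of 9 counted as lower (1.55%). No gene counted in all 3 injected libraries of a stage.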

How the data were processed

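The data were polyadenylated RNA of 8 pools of mouse embryos, 1 library per condition (SMARTer Stranded RNA-Seq kit, HiSeq 2500, per the labels' protocols). The authors deposited, per gene, a count of reads and a cRPKM value (an RPKM). In the deposited files, cRPKM equalled the count over a fixed length per gene and the library total, within 0.165% for 2662 genes with over 2000 reads in every library. Per the submitters' processing notes, mm9 was the genome build. Aligner, annotation, strand use and multi-mapping: not given in the sources used here. Symbols, transcripts and windows came from GENCODE M21 and RefSeq on GRCm38, so no position was moved between builds.

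The members and lists were chosen with earlier results of these data known. Counts as deposited were tested with edgeR 4.0.16 in R 4.3.3 (TMM, filterByExpr, quasi-likelihood test, Benjamini-Hochberg over all genes): a model of injection and stage (16264 genes, 3 residual degrees of freedom) and a model of 4 groups (16867 genes, 4 residual degrees of freedom). P-values measure the spread between differently injected pools, not between replicate pools. Class sums replaced their genes in the same fits and are given without a p. Alternatives used DESeq2 1.42.0, limma 3.58.1 (pseudocounts 0.1 and 1), library totals, DESeq2 size factors, no filter, and left-out libraries. Checks on simulated counts preceded the fits. Genes are named by fixed rules: the 2 with most reads per class, the largest changes, those past a test or a single-library ratio, and listed genes of note. No molecular identifiers are described, so reads may repeat a molecule, and intervals and floors cover counting error only.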

Additional observations from a re-analysis of the deposited data

Results flagged for a closer look

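In the 2-cell Snrpd2 library, Hist1h1b was at 3.45 cRPKM, while the other 2-cell libraries lay between 1.81 and 1.97. The gap to the nearest of them was larger than Dixon's 95% limit for 4 samples. Of the 38 sets of 4 libraries looked at (19 genes at 2 stages), this was the only one beyond the limit, and chance gives about 1 in 20. The stage change of Hist1h1b kept its direction and its call without both Snrpd2 libraries.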

How the results depend on the processing

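The number of clustered genes that fell between stages (8) was 5 with library totals. It was 4 to 7 when both libraries of 1 injection, or the 1-cell mCherry library, were left out (4 without Snrpb with Snrpd2, 5 without Snrpd2). With limma it was 10 and 9 (pseudocounts 0.1 and 1, 25.2% of all genes in each). Limma tested 32 genes and called Hist1h1d and Hist1h2ac in neither fit but Hist1h2ag, Hist1h2bk and Hist1h4n in both. Over the 8 libraries Hist1h2bk had 85 reads, but Hist1h2ag had only 7 and Hist1h4n only 2, so the calls of the latter 2 lie near the floor. The number that rose stayed at 2. With library totals the H2A sum changed by -1.18 (log2). In single libraries, the 1-cell Snrpb count of higher genes was 0 with library totals, and with 20 reads as the minimum the 2-cell Snrpb and Snrpd2 counts were each 1 (Hist2h2be and Hist1h2be) in place of 0. Signs turned only in changes that passed no test. Hist1h2be was at -0.44 without the Snrpb libraries (up to 0.90 with others left out). Hist1h3e was at 0.0031 without Snrpb with Snrpd2 (down to -0.45 with others left out), 0.11 with library totals, and 0.10 and 0.081 with limma (pseudocounts 0.1 and 1). Lsm10 was at 0.04 with library totals and 0.04 with either limma fit (0.0394 and 0.0388). At the 2-cell stage, injected Hist1h1b was at -0.029 without the Snrpd2 library (up to 0.45 with others left out). The cause of these turns was not tested. The injection and stage model gives 1 injection effect averaged over both stages, not a 2-cell one. In it Hist1h1b was at -0.65 and Hist1h1c at 0.31. In the fit of 4 groups these genes were at 0.29 and -0.28 at the 2-cell stage and at -1.58 and 1.03 at the 1-cell stage. All other single-gene results gave 444 unchanged verdicts, 9 now past the threshold and 18 no longer past it. The stage model pairs the 1-cell and 2-cell library of each injection; without its injection terms 9 genes fell and 2 rose. Injected and mCherry libraries could not be paired within a stage, since each condition had 1 library. Depth limits 26 of the 45 genes, which had fewer than 50 reads in all.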
